A study of Mus musculus with 2 samples.

Results

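Blood-rich spots were the spots of lung tissue in which the most RNA came from haemoglobin genes. They were selected on the summed counts per 10000 of Hba-a1, Hba-a2, Hbb-bs and Hbb-bt, the adult alpha and beta globin genes, and were the top 5% of spots within each section. This gave 93 spots in the control lung and 55 in the metastatic lung, 148 of the 2998 spots over tissue. The reference was the middle 50% of spots by the same score, 931 in the control and 552 in the metastatic section. The question was what these spots hold besides globin RNA: other red cell transcripts, platelets, blood leukocytes, and the endothelium and wall of large vessels.

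The data were Visium spatial transcriptomics counts, in which mRNA from a fresh-frozen section is captured on a slide of barcoded spots 100 µm apart, so that each spot reads a small region holding several cells. Both lungs came from female Balb/c mice with a listed age of 6 to 8 weeks. The metastatic lung came from a mouse that received 1000000 4T1 mouse mammary carcinoma cells in the mammary fat pad and was euthanised after 21 to 23 days, and the control lung came from an untreated mouse. In the paper, 6 to 8 weeks is the age at injection of the cells, so the metastatic mouse was older at collection. Whether the control lung was taken at a matching age is not stated. Both sections were permeabilised for 18 min. There was 1 section per condition, spots of a section are not replicates, and so no test between conditions or spots was possible: all intervals below are exact 95% intervals that cover counting error only. The control section held 1888 spots with 20329126 counts in all (median 9643.5 per spot), of which 27 had fewer than 1000 counts and were left out. The metastatic section held 1110 spots with 14657881 counts (median 11334.5), of which 6 were left out.

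Mature red cells have no nucleus, but the youngest of them, reticulocytes, still carry mRNA, nearly all of it for globin and for the enzymes of haem synthesis. Platelets likewise carry mRNA inherited from megakaryocytes. In the lung, blood runs through arteries and veins with walls of smooth muscle and elastic fibre, and through a dense bed of alveolar capillaries. In mice the pulmonary veins also carry a sleeve of cardiac-type muscle.

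The 4 globin genes and Alas2, the erythroid enzyme of the first step of haem synthesis, are shown by the 150 bases just before their transcription starts, since these are the genes that chose the spots and the gene that stood highest in them. The windows are from the RefSeq promoter table for GRCm38.p6, each 5′ to 3′ on the gene's own strand, and all 5 genes had an entry. Capitals mark matches on either strand to CCAAT (bound by NF-Y), to CACCC (bound by KLF factors) and to GATAA (bound by GATA factors) in many erythroid promoters.
Hba-a1 (chr11:32283522-32283671, plus strand): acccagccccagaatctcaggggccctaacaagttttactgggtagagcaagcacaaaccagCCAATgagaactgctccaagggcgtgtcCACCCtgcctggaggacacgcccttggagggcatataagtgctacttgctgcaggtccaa
Hba-a2 (chr11:32296342-32296491, plus strand): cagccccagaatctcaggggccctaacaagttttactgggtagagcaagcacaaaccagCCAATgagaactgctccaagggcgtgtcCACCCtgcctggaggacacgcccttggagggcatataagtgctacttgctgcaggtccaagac
Hbb-bs (chr7:103827929-103828078, minus strand): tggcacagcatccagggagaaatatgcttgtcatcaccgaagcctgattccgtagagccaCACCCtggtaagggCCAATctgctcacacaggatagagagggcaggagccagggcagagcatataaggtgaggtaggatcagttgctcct
Hbb-bt (chr7:103813924-103814073, minus strand): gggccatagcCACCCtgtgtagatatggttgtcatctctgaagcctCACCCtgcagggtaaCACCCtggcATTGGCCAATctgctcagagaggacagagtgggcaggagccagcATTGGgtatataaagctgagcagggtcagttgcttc
Alas2 (chrX:150547267-150547416, plus strand): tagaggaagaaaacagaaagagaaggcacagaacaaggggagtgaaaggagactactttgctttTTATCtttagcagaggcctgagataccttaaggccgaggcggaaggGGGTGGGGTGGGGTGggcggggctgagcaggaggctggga

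All 4 globin windows held both CCAAT and CACCC and none held GATAA, whereas the Alas2 window held GATAA and CACCC on the opposite strand and no CCAAT. Neighbouring matches in Hbb-bt (CCAAT on both strands) and in Alas2 (CACCC) lie next to each other without sharing a base. Of all 32851 windows of this length in the table, 24.5% held CCAAT, 37.4% held CACCC and 13.3% held GATAA. The Hba-a1 and Hba-a2 windows are the same sequence offset by 3 bases, with 147 identical bases in a row, and the last 300 bases of their longest GENCODE transcripts were 89.6% identical. For Hbb-bs and Hbb-bt these shares were 73.7% over the promoter windows and 86.2% over the transcript ends. How counts fell between the copies of a pair is therefore uncertain. The Hbb-bs and Hbb-bt features also describe the beta globin haplotype of the C57BL/6 reference genome, while BALB/c mice carry another.

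In the control section the globin score of the blood-rich spots ranged from 3386 to 6152 counts per 10000 (median 4716), and in the metastatic section from 2309 to 5237 (median 2909). The spots just outside had 3345 in the control and 2283 in the metastatic section, so neither threshold fell at a gap. The middle spots ranged from 63.4 to 264.8 in the control and from 65.0 to 815.5 in the metastatic section. The metastatic reference thus reached further up, and ratios between blood-rich and middle spots of the 2 sections do not rest on the same background. As the rule fixed these values, they are a description of the choice.

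The 4 globin genes made up 46.8% of all counts of the control blood-rich spots against 1.29% of the middle spots. The metastatic shares were 29.4% and 3.42%. All further levels are counts per 10000 counts outside the 4 globin genes, so that globin itself did not press other genes down.

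The metastatic spots with most globin were shallow. The blood-rich spots there had a median of 5097 counts, and 3580 outside globin, against 11968 and 11418.5 in the middle spots. Over the 1104 metastatic spots, Spearman's rho between score and total counts was -0.501, given as a description, since the score has the total in its denominator. In the control section blood-rich spots had a median of 15294 counts, and 8042 outside globin, against 9475 and 9344 in the middle spots (rho 0.004 over 1861 spots). The part of depth in the metastatic comparison was not tested beyond the depth-limited references given with the processing alternatives.

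The blood-rich spots of the control lung were nearly all 1 structure. Of the 93 spots, 85 (91.4%) formed 1 connected strip, at most 27 spot steps or 2700 µm from end to end, and the other 8 lay in 4 groups. Of 533 neighbouring places over tissue, 70.5% were themselves blood-rich. In the metastatic lung the 55 spots fell into 21 groups, none larger than 8 spots and 8 of them single spots, and 28.9% of 284 neighbouring places were blood-rich. At the tissue edge, where a spot has fewer than 6 neighbours over tissue, lay 36.4% of the metastatic blood-rich spots against 19.6% of the middle spots, and 17.2% against 25.7% in the control.

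**Figure D1:**
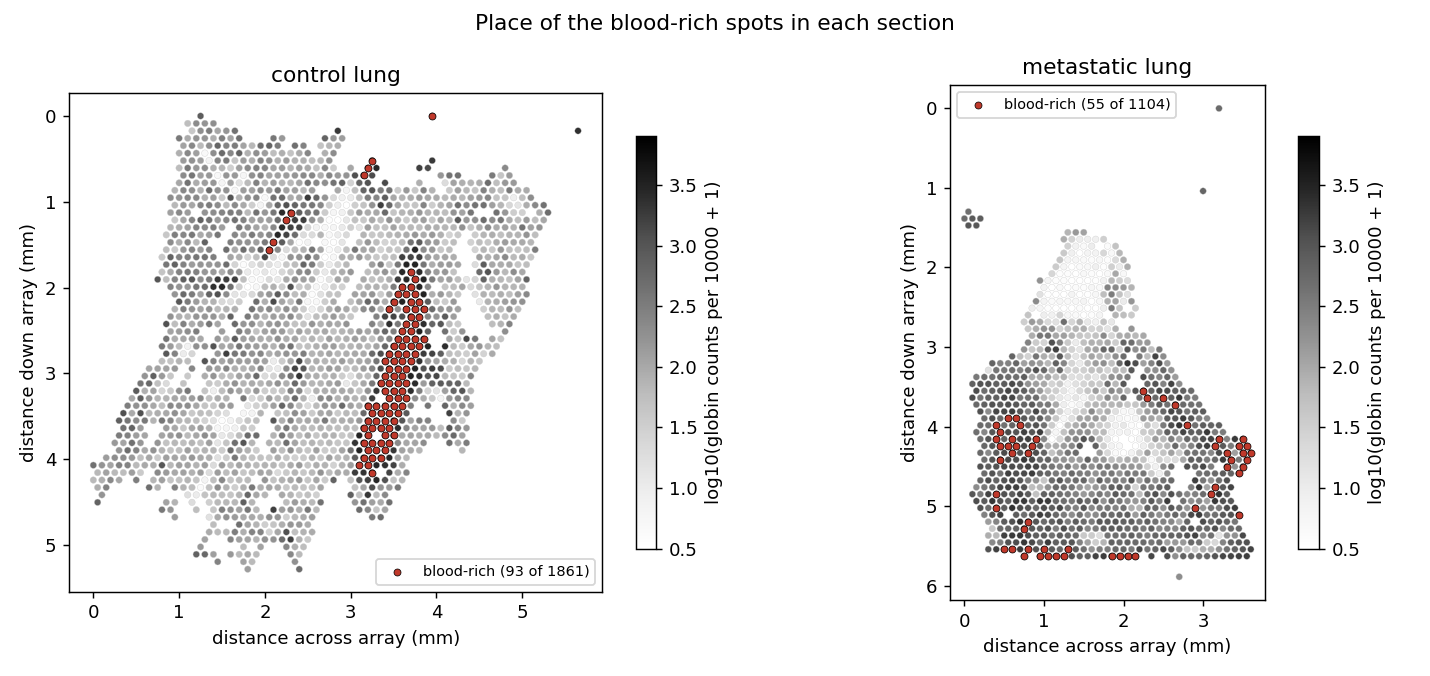
Map of every spot with at least 1000 counts in the control (left) and metastatic (right) section, with distance across and down the array in mm. Grey shade is log10 of globin counts per 10000 plus 1, and red spots are blood-rich (93 and 55). The control spots form 1 long strip with 8 spots elsewhere, and the metastatic spots lie in 21 small groups along the left, right and lower parts of the section.

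The label under which these spots were proposed also names large vessels, and endothelial counts set against the middle spots did not bear that out. The level of 28 large-vessel endothelial genes (arterial, venous and shared) was 19.8 counts per 10000 in the control blood-rich spots and 23.9 in the middle spots, a ratio of 0.830 (0.786 to 0.875). For the metastatic section it was 24.2 in both, a ratio of 1.00 (0.913 to 1.09). The control median log2 ratio of the measured members was -0.25, beside -0.28 over all measured genes. Against all other spots the ratios were 1.00 in the control and 1.24 in the metastatic section. Smooth and cardiac-type muscle genes, given further on, changed direction with the measure or reference in the control. The spots are therefore called blood-rich spots throughout. The images of the sections were not used here, and no vessel was identified.

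Within globin itself, the make-up of the counts differed between blood-rich and middle spots in both sections. The same genes ranked the spots, so the ratios are a description that is not independent of the choice. How far the choice shaped them was not tested. The beta totals also rest on reference features of another haplotype than that of BALB/c, so the level of the ratio is uncertain. Alpha globin counts per beta globin count were 1.07 in the control blood-rich spots and 0.580 in the middle spots. Over single blood-rich spots the ratio ran from 0.859 to 1.22 (median 1.06), and the median of the middle spots was 0.593. Metastatic blood-rich spots had 0.892 and middle spots 0.493, with single blood-rich spots between 0.719 and 1.04.

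Across the score, which is built from the same globin counts, the alpha to beta ratio climbed only above the middle spots. In the control it was 0.576 in the lowest 25% of spots, 0.580 in the middle, 0.665 between 75% and 90%, 0.888 between 90% and 95%, and 1.07 at the top. The same metastatic bands had 0.565, 0.493, 0.625, 0.752 and 0.892. The order of the 3 upper bands was thus the same in both sections, and in the middle and lowest bands beta globin counts exceeded alpha counts about as much as each other.

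The copies within each pair also differed in their split, with the uncertainty given above. Hba-a1 counts per Hba-a2 count were 35.9 in the control blood-rich and 16.5 in the middle spots, and 16.3 against 10.4 in the metastatic section. Hbb-bs counts per Hbb-bt count went the other way, 9.16 against 15.4 in the control and 9.09 against 13.8 in the metastatic section. Hba-a1 and Hbb-bt were therefore the copies that stood out most from the middle spots, 52.8-fold and 44.9-fold in the control and 12.7-fold and 9.96-fold in the metastatic section, against 26.7-fold and 6.55-fold for Hbb-bs. These folds are part of the choice of spots.

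**Figure D2:**
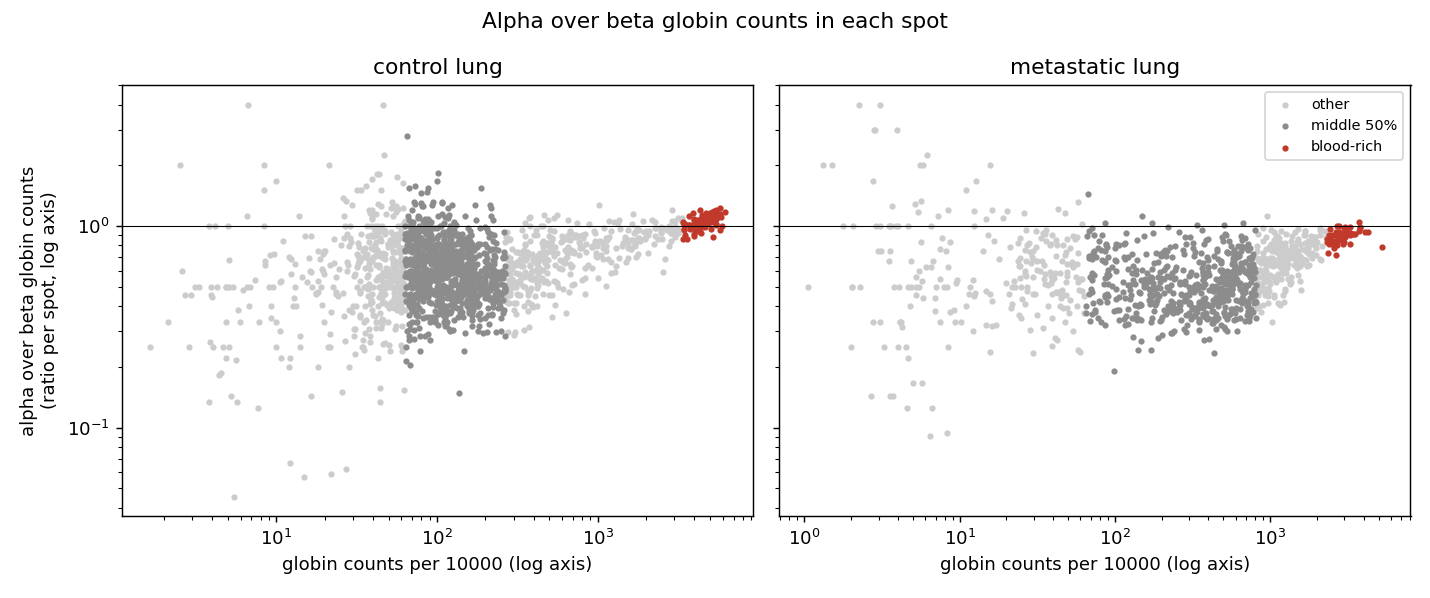
Alpha over beta globin counts in each spot (log axis) against the globin score in counts per 10000 (log axis), for the control (left) and metastatic (right) section. Spots without an alpha or a beta count (11 control and 32 metastatic, none blood-rich) are not drawn, and the line marks a ratio of 1. Red blood-rich spots have medians of 1.06 and 0.906, and dark grey middle spots medians of 0.593 and 0.498. The axes share the counts of the same globin genes, so they are not independent.

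Red cell transcripts other than globin were the most raised list in both sections, among lists chosen with earlier results of these data known. Summed over 21 genes they stood at 58.6 counts per 10000 in the control blood-rich spots and 3.39 in the middle spots, a ratio of 17.3 (16.5 to 18.1). The metastatic levels were 38.8 and 4.84, a ratio of 8.02 (7.42 to 8.67). Single spots ranged from 20.6 to 119 (median 57.8) in the control and from 17.1 to 108 (median 38.6) in the metastatic section. All 93 and all 55 blood-rich spots lay above the median of their section's middle spots, 3.14 and 4.71, although single middle spots reached 38.6 and 25.9, so the groups overlapped at their ends.

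A gene was called measured with at least 200 counts in the blood-rich and middle spots together, and past the threshold at 1.5-fold. In the control 8 red cell genes were measured and all 8 were at least 1.5-fold higher, and in the metastatic section all 7 of 7. Over all genes the background was 2.78% of 7459 genes at least 1.5-fold higher and 23.0% at least 1.5-fold lower in the control, and 7.18% and 12.8% of 5712 genes in the metastatic section. The median log2 ratio of the red cell genes was 3.99 in the control and 2.80 in the metastatic section, beside -0.28 and -0.02 over all measured genes.

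Alas2 stood first when genes were ranked by the smaller of their ratios in the 2 sections. Its level in control blood-rich spots ranged from 3.93 to 50.9 counts per 10000 (median 19.6), and it was detected in all 93, against 227 of 931 middle spots. Among metastatic spots it was detected in 53 of 55 blood-rich spots (highest 40.4, median 13.4) and in 328 of 552 middle spots. Its summed level was 65.7-fold higher in the control (57.8 to 74.9) and 14.7-fold higher in the metastatic section (12.7 to 17.0).

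Fech and Slc25a37 were the other measured members of the red cell list that act on haem or iron. Fech, which inserts iron to form haem at the end of the same pathway, was 7.76-fold higher in the control (6.48 to 9.27) and 6.90-fold in the metastatic section (5.08 to 9.24). Slc25a37, the mitochondrial iron importer mitoferrin, was 10.0-fold (8.21 to 12.2) and 6.97-fold higher (5.03 to 9.49). Isca1, an iron-sulphur cluster assembly factor outside the list and named for its rank, was 9.14-fold and 6.26-fold higher. A separate list of haem and iron handling genes, given further on and not specific to a cell type, was raised as a group in the control only.

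Among the other measured members of the red cell list, Mkrn1, an E3 ubiquitin ligase, was 17.4-fold higher in the control (15.9 to 19.0) and 6.95-fold in the metastatic section (5.86 to 8.20), with a count in 92 of 93 and 53 of 55 blood-rich spots. Bpgm, which makes the 2,3-bisphosphoglycerate that loosens oxygen from haemoglobin, was 5.46-fold and 3.51-fold higher. Isg20, an exonuclease, was 18.1-fold and 5.40-fold higher, and Tent5c, a poly(A) polymerase, 14.5-fold and 10.1-fold. Epb41, the membrane skeleton protein 4.1, was outside the list, was named for its rank and stood 3.63-fold and 3.18-fold higher.

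The members that mark nucleated red cell precursors were near 0. Gata1, the erythroid master transcription factor, had 0 counts in the blood-rich spots of both sections, which allows levels of up to 0.0411 counts per 10000 in the control and 0.144 in the metastatic section. Klf1 had 1 and 0 counts, Rhag 1 and 0, and Hemgn 1 and 1. Below the minimum of counts lay 13 of the 21 genes in the control and 14 in the metastatic section. Among these Slc4a1, the band 3 anion exchanger, had 32 counts in blood-rich against 35 in the more numerous middle spots of the control, and 6 against 42 in the metastatic section.

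Platelet transcripts were higher in the blood-rich spots of both sections, by less than red cell transcripts. In the control the list of 18 genes stood at 7.97 counts per 10000 against 2.78 in the middle spots, a ratio of 2.87 (2.62 to 3.14). The metastatic level was 5.10 against 3.42, a ratio of 1.49 (1.22 to 1.82) from 106 counts. Single control spots ranged from 0 to 60.9 (median 5.91) and metastatic spots from 0 to 16.6 (median 4.8). Above the median of the middle spots lay 81 of 93 and 36 of 55, so the groups overlapped widely.

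Pf4, Nrgn and Ppbp had the most platelet counts in the control blood-rich spots (186, 145 and 97). Ppbp, the alpha granule precursor of the chemokine CXCL7, was 6.32-fold higher in the control (4.90 to 8.11), and 1.95-fold in the metastatic section (0.993 to 3.49) from 12 counts. Pf4, platelet factor 4, also an alpha granule chemokine, was 2.84-fold (2.41 to 3.33) and 1.3-fold higher (0.902 to 1.83). Nrgn, neurogranin, which is also a neuronal calmodulin binder, was 3.96-fold (3.26 to 4.78) and 1.95-fold higher (1.27 to 2.88). Of the receptor genes measured in the control, Itga2b stood at 1.67 and Itgb3 at 0.514 (0.232 to 0.993). Itgb3 is also used by endothelium. Median log2 ratios of the platelet genes were 1.14 over 6 and 0.99 over 3 measured genes.

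In the control section platelet and red cell transcripts did not peak in the same spots. The platelet level was 10.6 counts per 10000 in the spots ranked 90% to 95% by globin and 7.97 in the blood-rich spots, while the red cell level was 19.0 and 58.6. It was also higher next to the blood-rich spots than in them: spots 1 step away had a platelet level of 9.69, those 2 steps away 2.77 and those 3 steps away 1.63. The 8 control spots outside the strip had a platelet ratio of 6.58 (5.08 to 8.38) against 2.68 (2.43 to 2.94) in the strip, with red cell ratios of 14.9 and 17.4. The metastatic platelet level was 5.93 in the 90% to 95% band (5.18 to 6.76). It was 5.10 in the blood-rich spots (4.18 to 6.17) and 4.95 at 1 step. The metastatic red cell level was 18.2 in that band and 38.8 in the blood-rich spots. As the platelet intervals overlapped, whether platelet and red cell transcripts peaked apart there was not resolved.

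**Figure D3:**
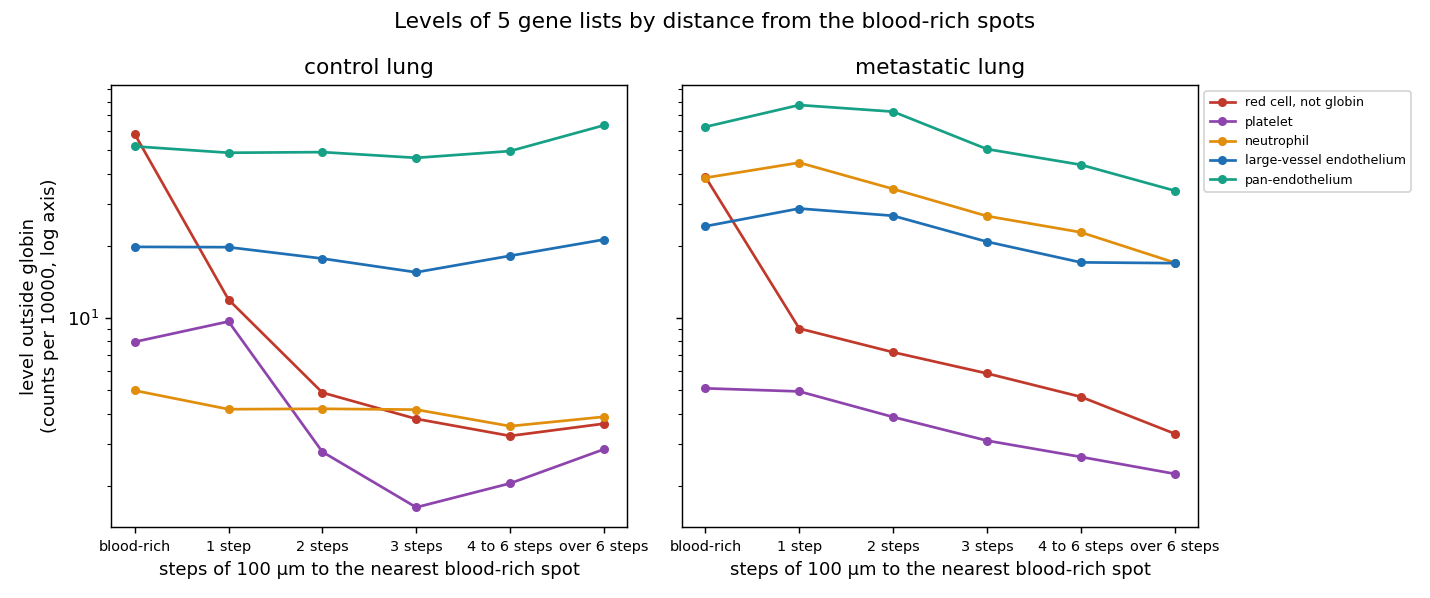
Levels of 5 gene lists in counts per 10000 outside globin (log axis) by distance to the nearest blood-rich spot, in steps of 100 µm, for the control (left) and metastatic (right) section. The red cell level drops from 58.6 to 12 and from 38.8 to 9.06 over the first step. Large-vessel endothelium lies between 15.5 and 21.3 in the control, highest beyond 6 steps. In the metastatic section it is 24.2 in blood-rich spots and 28.7 at 1 step, and falls to 17.0 beyond 6 steps.

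Blood leukocytes showed no common pattern. Neutrophil genes were 1.21 times the middle level in the control (1.08 to 1.34) and 1.22 times in the metastatic section (1.13 to 1.31), with 71 of 93 and 43 of 55 spots above the middle median. The levels themselves differed between the sections, 5.0 counts per 10000 in control and 38.5 in metastatic blood-rich spots. The neutrophil level was no higher in blood-rich spots than in their neighbourhood in the metastatic section, where spots 1 step away had 44.5.

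The neutrophil calcium binders S100a8 and S100a9 supplied most of these counts. S100a8 was 1.3-fold higher in the control (1.03 to 1.61) and 1.28-fold in the metastatic section (1.14 to 1.44). S100a9 was 0.990 (0.797 to 1.22) and 1.24 (1.12 to 1.37). Hdc, the histamine-forming enzyme, was 1.63 (1.26 to 2.08) and 1.12 (0.592 to 1.94). Lcn2, which airway epithelium also makes, was 1.19 and 0.776, and both its intervals held 1.

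Monocyte genes took different values in the 2 sections, a difference that was not tested. Classical monocyte genes were 1.27 times the middle level in the control (1.19 to 1.36), led by Hp (1.51), the haptoglobin gene, which club cells also express, and 0.984 times the level of all other spots. Their metastatic ratio was 0.923 (0.822 to 1.03). Non-classical monocyte genes were 0.625 (0.583 to 0.670) in the control, led by Ace (0.635), which capillary endothelium also expresses, and 0.982 (0.877 to 1.10) in the metastatic section.

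Lymphocyte genes were at or below the middle level. In the control, B cell genes stood at 0.533 (0.445 to 0.633), T cell genes at 0.757 (0.646 to 0.882, but 1.12 in the 8 spots outside the strip) and NK cell genes at 0.792 (0.625 to 0.992). All 4 measured B cell genes were at least 1.5-fold lower there, beside 23.0% of all measured genes. Among the 4, Cd79a stood at 0.369 (0.217 to 0.588) and Ighm at 0.614 (0.453 to 0.816). In the metastatic section the B cell list rested on 36 counts, the T cell list on 48 and the NK cell list on 17, and all 3 intervals held 1, so no difference was detectable at this depth.

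Endothelial lists summed to less than the middle level in the control blood-rich spots, where most genes did too. Beside a median log2 ratio of -0.28 over all measured genes, the medians were -0.32 for arterial, -0.22 for venous, -0.34 for general capillary and -0.32 for aerocyte genes, close to that background, and -0.57 for genes shared by all endothelium. As ratios of summed counts, arterial genes were 0.789 (0.725 to 0.856), venous genes 0.874 (0.788 to 0.966), general capillary genes 0.820 (1.03 against all other spots) and aerocyte genes, of the gas-exchange capillary, 0.771. Genes shared by all endothelium were 0.711 (0.688 to 0.734), and 1 of 93 blood-rich spots lay above the median of the middle spots. Lymphatic endothelial genes were 0.703 (0.621 to 0.793). Fewer cells of a type and less RNA per cell cannot be told apart in such sums, nor can a larger share of RNA from other cells.

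Among single endothelial genes the adhesion and lineage markers differed from each other. In the control, Cdh5, the VE-cadherin gene, stood at 0.981 (0.887 to 1.08), Pecam1 at 0.900 (0.806 to 1.00) and Vwf, von Willebrand factor, at 0.943 (0.803 to 1.10). Lower were Dll4, the arterial Notch ligand, at 0.465 (0.337 to 0.626), Robo4 at 0.409 (0.280 to 0.578) and Tie1 at 0.514 (0.427 to 0.614). No measured arterial, venous or shared large-vessel gene was 1.5-fold higher in the control. Only 2.78% of all measured genes were, so for so few genes none is close to that share. The highest were Car8 at 1.34 (1.03 to 1.72) and Prss23 at 1.23 (0.899 to 1.64), both of the venous list.

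Metastatic lists of blood vessel endothelium stood near the middle level, and lymphatic endothelium below it at 0.707 (0.536 to 0.914) from 59 counts. Arterial genes were 0.958 (0.823 to 1.11), venous genes 0.976 (0.811 to 1.16) and genes of all endothelium 0.997 (0.943 to 1.05). Of 20 measured large-vessel genes, 10 were above and 10 below the middle level, and 47.8% of all measured genes were above it. Slc6a2, the noradrenaline transporter of the venous list, was past the threshold at 1.96 (1.10 to 3.24) from 16 counts, and 3 genes were past it downwards. Over all measured genes 7.18% were past it upwards and 12.8% downwards, so these counts lie close to the background. The aerocyte list was 1.12 (1.02 to 1.23), though 0.993 against middle spots within 3 steps, with Prx, periaxin, at 1.47 and Ednrb, the endothelin B receptor, at 1.45.

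Above the lowest band, the large-vessel level did not climb with the globin score. In the control it was 12.8 counts per 10000 in the lowest 25% of spots, 23.9 in the middle, 22.2 and 19.2 in the next 2 bands and 19.8 at the top. Metastatic bands had 11.3, 24.2, 26.9, 22.8 and 24.2. Both sections thus had their lowest large-vessel level in the spots with least globin, and no band above the middle stood far from it. Spearman's rho between the large-vessel level and the globin score was 0.117 over all control and 0.413 over all metastatic spots, a description that takes in the lowest band. Set against all other spots, blood-rich spots therefore had ratios of 1.00 (0.950 to 1.06) in the control and 1.24 (1.13 to 1.36) in the metastatic section. By distance, the metastatic large-vessel level was 28.7 at 1 step from a blood-rich spot and 17.0 beyond 6 steps. Genes shared by all endothelium also fell there, from 77.3 to 34.0. In the control the large-vessel level was 19.8 at 1 step and 21.3 beyond 6 steps.

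**Figure D4:**
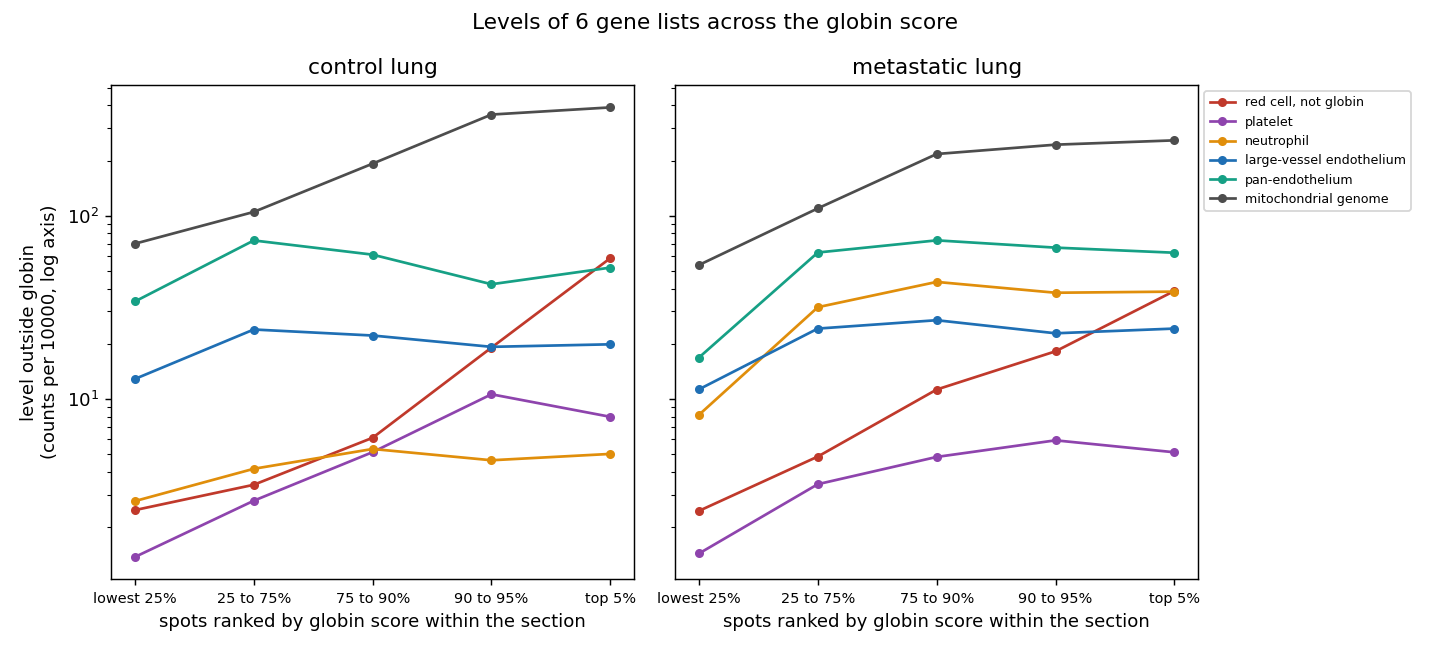
Levels of 6 gene lists in counts per 10000 outside globin (log axis) over 5 bands of spots ranked by globin score, for the control (left) and metastatic (right) section. Red cell genes climb through every band to 58.6 and 38.8, mitochondrially encoded genes climb to 390.0 and 257.7, and the large-vessel list stays near its middle level of 23.9 and 24.2 above the lowest band.

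Genes of the vessel wall depended on the measure used. Smooth muscle genes summed to 0.681 of the middle level in the control (0.641 to 0.724), but 59 of 93 blood-rich spots lay above the median of the middle spots, 12.8, because single middle spots reached 287. Among them Acta2, smooth muscle actin, was 0.596 and Des, desmin, 0.457, while Tagln was 1.13 (0.868 to 1.46). In the 8 control spots outside the strip the list stood at 1.62 times the middle level, so its direction in the control was that of the strip. In the metastatic section it was 0.849 (0.726 to 0.986).

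Cardiac-type muscle genes showed the same split more strongly in the control. Summed they stood at 19.2 counts per 10000 against 47.2, a ratio of 0.406 (0.385 to 0.429), yet 78 of 93 blood-rich spots lay above the middle median of 5.23, since a few middle spots reached 1021. Myl7, the atrial myosin light chain, was 0.456 and Myh6, the alpha myosin heavy chain, 0.364 in these sums. Against middle spots within 3 steps the list was 1.99 times higher (1.84 to 2.15), so its direction depended on the reference. All metastatic blood-rich spots together had 19 counts of it. Elastic fibre genes were 0.702 (0.665 to 0.740) in the control and 0.931 (0.838 to 1.03) in the metastatic section.

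Airway and alveolar genes went apart between the sections. Club cell genes, of the secretory airway cell, were 1.60 times the middle level in the control and 0.886 times in the metastatic section, where the direction turned to 1.80 against middle spots of like depth and to 1.32 without the spots highest in club genes. Against all other control spots the ratio was 0.653, because the spots with least globin had the highest club level, 3629 counts per 10000 against 717 in the middle and 1148 in the blood-rich spots. Scgb1a1, the club cell secretoglobin, ranged from 387 to 2700 in control blood-rich spots (median 928), all above the middle median of 289, and from 107 to 3930 (median 681) in metastatic ones.

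Alveolar type I genes were 0.784 (0.762 to 0.806) in the control and 1.19 (1.13 to 1.26) in the metastatic section, or 1.06 there against middle spots of like depth. Their control median log2 ratio was -0.395, beside -0.28 over all measured genes. Ager, the type I receptor RAGE, was 0.777 and 1.23, and Hopx 0.755 and 1.14. Alveolar type II genes were 1.00 (0.989 to 1.01) and 1.25 (1.22 to 1.28), with the surfactant genes Sftpc at 0.984 and 1.27 and Sftpa1 at 1.31 and 1.38. Interstitial macrophage genes were 1.07 in the control and 0.492 (0.386 to 0.617) in the metastatic section, where the complement gene C1qa stood at 0.407 and C1qc at 0.308.

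**Figure D5:**
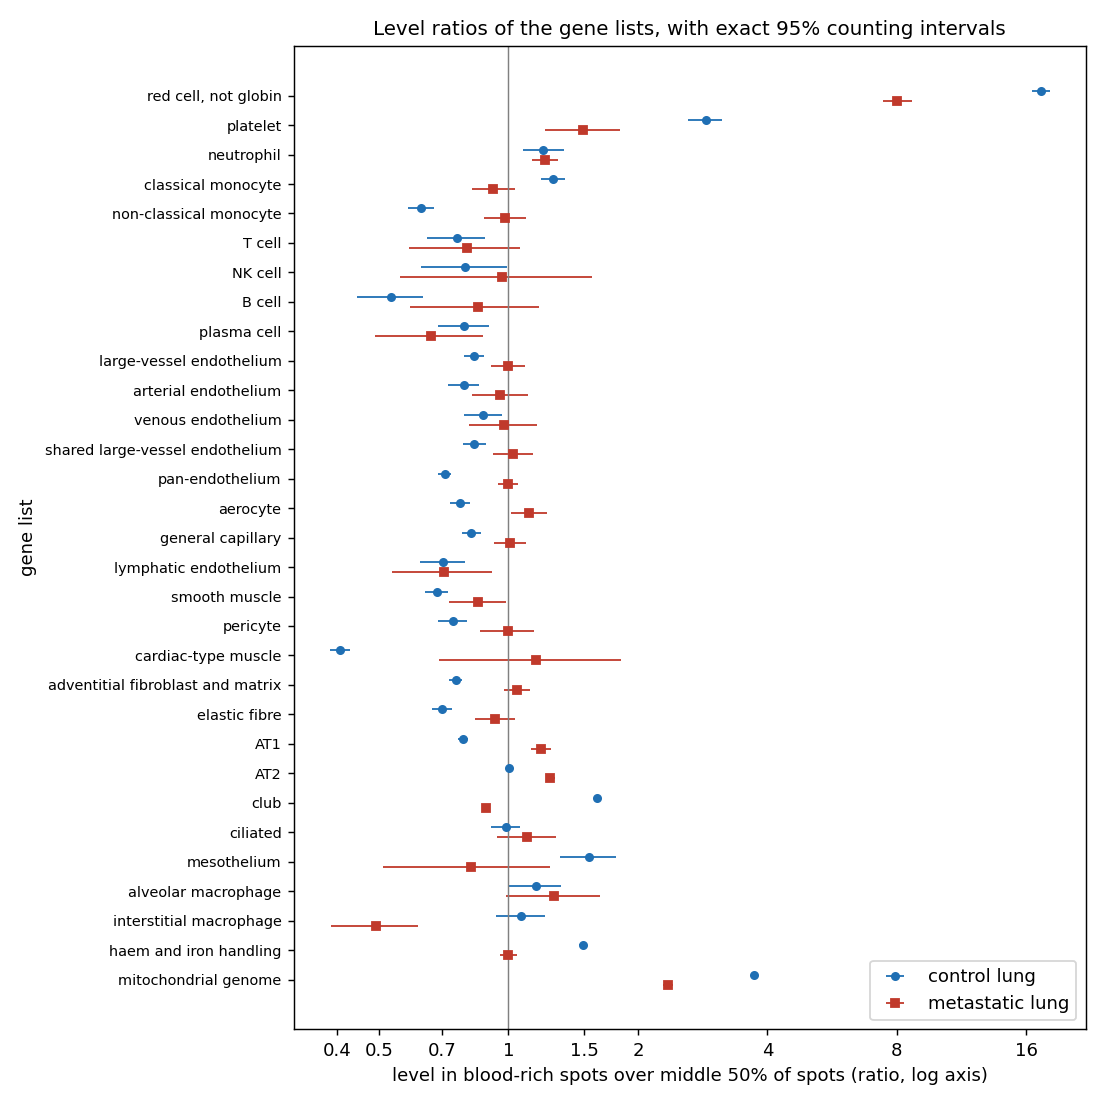
Ratio of the summed level in blood-rich over middle spots (log axis) for 31 gene lists, with circles for the control and squares for the metastatic section and bars for exact 95% counting intervals. The red cell list is highest in both (17.3 and 8.02), mitochondrial genes (3.72 and 2.35) and platelets (2.87 and 1.49) follow, and lists of blood vessel endothelium lie below 1 in the control and near 1 in the metastatic section, while lymphatic endothelium lies at 0.703 and 0.707.

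After the red cell list, RNA encoded by the mitochondrial genome was the list that stood out most. Which cells this RNA came from was not tested. It was at 390.0 counts per 10000 in the control blood-rich spots against 104.8 (ratio 3.72, 3.67 to 3.77) and at 257.7 against 109.6 in the metastatic section (2.35, 2.29 to 2.42). All 10 measured genes were at least 1.5-fold higher in both sections, from mt-Cytb at 2.91 to mt-Co2 at 5.80 in the control and from mt-Atp6 at 2.02 to mt-Co2 at 3.53 in the metastatic section. All 93 and all 55 spots lay above their middle median. The mitochondrial level also followed the globin score over all spots, with Spearman's rho 0.636 over 1861 control and 0.810 over 1104 metastatic spots, a description in which both measures come from the same spots and library.

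Mitochondrial share is a usual sign of RNA quality, and its part in the other results was not tested. Gm42418, a transcript that overlaps a ribosomal RNA locus, moved with it: 15.4-fold higher in the control (14.5 to 16.4) and 9.82-fold in the metastatic section (8.98 to 10.7). Ribosomal protein genes, a list chosen after their values were seen, were 1.41 times the middle level with 72 of 77 genes higher in the control, and 1.09 times with 53 of 77 higher in the metastatic section. Pabpc1, the poly(A) binding protein, was 12.8-fold and 5.83-fold higher.

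Haem and iron handling genes summed to more than the middle level in the control blood-rich spots and to the middle level in the metastatic ones, a difference between sections that was not tested. In the control they were 1.49 times the middle level (1.46 to 1.53), carried by the ferritin light chain Ftl1 at 2.14 (2.07 to 2.21), a gene with several near-identical pseudogenes. Fth1, the heavy chain, was 1.10 (1.06 to 1.15), Tfrc, the transferrin receptor, 1.02 (0.680 to 1.47) and Blvra, a biliverdin reductase, 0.657 (0.363 to 1.10). Of 9 measured genes 7 were higher in the control and 5 in the metastatic section, beside 23.9% and 47.8% of all measured genes. In the metastatic section the list was 1.00 (0.954 to 1.05), with Ftl1 at 1.15 and Fth1 at 0.888 (0.827 to 0.952). Ncoa4, the receptor that hands ferritin to the lysosome, was close in both, 1.99 (1.51 to 2.58) and 1.97 (1.17 to 3.13). Blvrb, a biliverdin reductase abundant in red cells, was 1.34 and 1.35, with both intervals reaching below 1.

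Across all genes the control blood-rich spots had 207 genes at least 1.5-fold higher and 1714 lower, and the metastatic spots 410 and 730. Leaving Scgb1a1, mitochondrial, surfactant protein and immunoglobulin genes out of the totals as well moved the control median of all genes from -0.28 to -0.17 on the log2 scale and the counts to 321 and 1154, so that 21.8% in place of 10.8% of the control calls were higher. Of the 5662 genes measured in both sections, 58 were 1.5-fold higher in both, which is 34.9% of the control's 166 and 14.4% of the metastatic section's 404, where 7.14% and 2.93% of all these genes were 1.5-fold higher in the metastatic and control section. Lower in both were 206, 17.7% of the control's 1162 and 28.6% of the metastatic section's 720, beside 12.7% and 20.5% of all these genes. The direction was the same for 56.9% of the genes. With a minimum of 1000 counts per gene, 55 of 976 genes were past the threshold in the metastatic section, 26 of them higher.

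The 15 genes highest in both sections, ranked by the smaller of the 2 ratios, were Alas2, Tent5c, Gm42418, Slc25a37, Mkrn1, Fech, Isca1, Pabpc1, Isg20, Ube2l6, Bpgm, mt-Co2, Epb41, Lars2 and mt-Nd3. Of these, 7 belonged to the red cell list and 2 to the mitochondrial list. The lists were chosen with earlier results of these data known, so this overlap is a description and not independent support. Ube2l6, an E2 enzyme for ISG15, was 7.48-fold and 4.41-fold higher, and Lars2, the mitochondrial leucyl-tRNA synthetase, 5.39-fold and 3.11-fold.

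The 15 genes lowest in both were Itga5, Gimap3, Ppp6c, Eml3, Ptges2, Gbp9, Cdc42ep2, Stat2, Dok1, Usp24, Cyth4, Phactr4, Cytl1, Dgkh and Smg9. They rested on 7 to 26 counts in the control blood-rich spots and on 1 to 5 in the metastatic ones, and none belonged to a list used here. Itga5, the fibronectin receptor subunit, stood at 0.319 (0.158 to 0.577) in the control and had 2 counts against 294 in the metastatic section (ratio 0.225, 0.0271 to 0.819).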

How the data were processed

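The deposited values were raw counts (UMIs of each gene in each spot), made by the authors with Space Ranger 1.3.1 and the mm10 reference per the submitters' processing notes, with no normalization, for 1 control and 1 metastatic section. Of the 32285 features, 38 symbols stood for more than 1 feature and were kept apart by ID. The sections shared 858 spot barcodes, which are positions on the array.

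Spots over tissue with at least 1000 counts were ranked by globin counts per 10000. Levels were summed counts over summed totals without the 4 globin genes. Ratios carry exact 95% intervals from the binomial split of counts (Clopper-Pearson), and molecules of a spot are taken as independent. Log2 ratios of genes used a pseudocount of 0.5 counts, genes with at least 200 counts in both groups together, and a threshold of 1.5-fold. With a median of 9643.5 and 11334.5 counts per spot, a gene at 1 count per 10000 gives about 1 count per spot, so genes were read from sums. No p-value was computed. The named genes were members of the lists and the 15 highest and 15 lowest by the smaller log2 ratio of the 2 sections. The members and the 36 gene lists were chosen with earlier results of these data known, and the ribosomal protein list after its values were seen. A further 11 alternatives, and 2 chosen after seeing the data, were run. Values of 2 list members are not reported here. Scripts were tested on simulated data. Promoters came from the RefSeq table for GRCm38.p6 and transcripts from GENCODE M21. Python 3.11.15, numpy 2.4.6, scipy 1.17.1, pandas 2.3.3, Biopython 1.88 and matplotlib 3.10.9 were used.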

Additional observations from a re-analysis of the deposited data

Results flagged for a closer look

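The lists of aerocyte, alveolar type I and club cell genes stood on opposite sides of 1 in the 2 sections with counting intervals that did not hold 1, and the difference between the sections was not tested, as each condition had 1 section. The opposition did not hold under every alternative for aerocyte and club cell genes. The aerocyte ratio was 0.771 in the control and 1.12 in the metastatic section, so the metastatic ratio was 1.45 times the control ratio. For alveolar type I genes the ratios were 0.784 and 1.19 (1.52 times), and for club cell genes 1.60 and 0.886 (0.553 times). Most genes were lower in the control, so a ratio below 1 there is not particular to aerocyte and alveolar type I genes. Their control median log2 ratios were -0.32 and -0.395, beside -0.28 over all measured genes. The metastatic median of all measured genes was -0.02. Under 6 alternatives the metastatic club ratio was above 1, reaching 1.32 without the club-rich spots and 1.80 against middle spots of like depth, and single metastatic blood-rich spots had a median of 764.4 counts per 10000 against 760.0 in the middle spots. Metastatic edge spots had a club ratio of 1.25 and those with 6 neighbours 0.692. The metastatic aerocyte ratio was 0.993 within 3 steps and 1.03 at like depth, and the alveolar type I ratio was 1.06 at like depth. The metastatic blood-rich spots were also shallower (median 3580 counts outside globin against 8042) and more often at the edge (36.4% against 17.2%).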

How the results depend on the processing

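No paired analysis was possible because each condition had 1 section. The red cell ratio stayed above 1 under all 13 alternatives (11.2 to 21.2 in the control, 4.22 to 9.47 in the metastatic section), as did the platelet ratio (2.70 to 6.58 and 1.37 to 1.95), the neutrophil ratio (1.08 to 1.77 and 1.10 to 1.79) and the mitochondrial ratio (3.37 to 5.10 and 1.72 to 2.84).

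The cause of the following moves was not tested unless the setting itself names fewer spots or genes. The control platelet ratio was 3.36 with the top 10% of spots, 3.28 by summed globin counts, 3.45 against middle spots within 3 steps, 3.19 as a mean of spots and 6.58 in the 8 spots outside the strip. The metastatic platelet ratio was 1.95 by summed globin counts, 1.82 after thinning to 5000 counts and 1.82 with at least 5000 counts per spot. The control neutrophil ratio was 1.08 (0.944 to 1.22) without the 20% of spots highest in club genes and 1.77 outside the strip. The metastatic one was 1.79 by summed globin counts, 1.60 against all other spots, 1.12 within 3 steps and 1.10 without the club-rich spots.

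The large-vessel ratio in the control was 0.878 by summed globin counts, 1.00 against all other spots, 0.924 within 3 steps, 0.898 with abundant genes also out of the totals and 0.718 outside the strip. In the metastatic section it was 0.889 after thinning, 0.886 with at least 5000 counts, 1.24 against all other spots, 0.874 within 3 steps and, chosen after seeing the data, 0.848 against the 122 middle spots within the depth range of the blood-rich spots.

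Counts of genes past 1.5-fold moved both ways. From 1921 in the control they went to 328 within 3 steps, 4656 outside the strip, 413 with at least 1000 counts per gene and 478 at 2-fold. From 1140 in the metastatic section they went to 520 with the top 10%, 1814 with the top 2.5%, 531 by summed globin counts, 2692 against all other spots, 210 within 3 steps, 68 at like depth, 2266 with at least 100 and 55 with at least 1000 counts per gene, and 310 at 2-fold.

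Among lists past 1.5-fold, directions reversed in the control for club genes (0.653 against all other spots), cardiac-type muscle (1.99 within 3 steps) and mesothelium (0.915 within 3 steps and 0.771 outside the strip). Lists nearer to 1 that crossed it were, in the control, smooth muscle (1.62), T cell (1.12) and carcinoma keratin genes (1.13) outside the strip, and classical monocyte (0.984) and general capillary genes (1.03) against all other spots, and in the metastatic section aerocyte genes (0.993 within 3 steps) and club genes (1.01 to 1.80 under 6 alternatives). Outside the strip log2 ratios turned to 0.13 for Stat2, 0.34 for Usp24, 0.54 for Phactr4 and 0.90 for Cytl1, and in the metastatic section by summed globin counts to 0.26 for Usp24, 0.29 for Phactr4 and 0.26 for Smg9. Leaving out edge spots, also chosen after seeing the data, moved no platelet, neutrophil or large-vessel ratio outside its interval, and no count of genes by over 1.5 times. Depth limits the metastatic spots most: 207711 counts outside globin in 55 spots leave lists of under 50 counts, such as lymphocytes, with intervals that hold 1.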
